A study of Homo sapiens with 6 samples.

Results

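The WASP and WAVE regulators of actin were followed as a group of 10 genes among the 53719 rows of the count table: WASL, WASF1, WASF2, WASF3, CYFIP1, CYFIP2, NCKAP1, ABI1, FAM49A and FAM49B. They were taken by symbol, and all 10 had enough counts to be tested. The members were selected on the measured difference between knockdown and control, in which WASL and FAM49B passed the test over all genes, and the others were added as their relatives and partners. Their values in that comparison are therefore given as a description.

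The H9 line of human embryonic stem cells was used, grown in RSeT, a medium sold for naive-like culture. Both groups were transfected with a gapmer, an antisense oligonucleotide whose DNA middle recruits RNase H so that the paired RNA is cut. The knockdown group (3 libraries, titled Sense3) received one aimed at ALR, the RNA made from the alpha satellite repeats of human centromeres. The control group (3 libraries) received a control gapmer, and RNA was taken 48 h later. The comparison rests on 1 ALR gapmer in 1 cell line. The labels do not say whether libraries a, b and c came from separate cultures, so the p-values measure the spread between these libraries, which may be technical.

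WASP-family proteins switch on the Arp2/3 complex, which grows a new actin filament as a branch on the side of an existing one. N-WASP, the product of WASL, is opened by the GTPase Cdc42 together with membrane phosphoinositides and serves endocytosis, filopodia and vesicle movement. The WAVE proteins (WASF1, WASF2, WASF3) sit inside a stable complex with a CYFIP, NCKAP1, an ABI and BRK1, which holds them silent until active Rac binds the CYFIP subunit and a lamellipodium forms. FAM49B, also called CYRIB, binds active Rac and so limits its access to the WAVE complex, and FAM49A (CYRIA) is its paralogue.

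Total counts ran from 25087629 to 36576752 per library. Knockdown library a stood apart: it had counts in 29678 rows, against 25898 to 26788 in the other 5 libraries. Of the 19721 genes tested, 155 had an adjusted p under 0.05 (edgeR, quasi-likelihood, Benjamini-Hochberg), which is 0.786% of them. Of these 155, 17.4% were higher in knockdown. That share was 28.7% with upper-quartile scaling and 35.4% with library size alone. Over all alternatives it ran from 0.0% (without control library b or c) to 37.9% (no low-count filter). The number of genes that passed was 102 without knockdown library a, 61 without b and 1309 without c. It was 26, 42 and 42 without control libraries a, b and c. Of 9 pluripotency markers, 8 were tested and 0 passed. SOX2 was listed at 0 in every library, as were the rows of WIPF1, ITSN1 and TMSB10, so a row at 0 in this table does not show that a gene was silent. In such bulk libraries, fewer cells of a type and less RNA per cell cannot be told apart. In CPM (counts scaled to library size by TMM, the trimmed mean of M-values), 8 naive markers summed to 67.6 to 74.9 in knockdown and 67.8 to 72.2 in control libraries. TFCP2L1, DPPA3 and KLF4 made up most of that sum, KLF17 was at 0.0275 to 0.353 CPM and KHDC1L was listed at 0. The 5 primed markers with a row summed to 329 to 333 and 326 to 333 CPM, mostly from PTPRZ1 and SFRP2. ZIC2 and DUSP6 were between 8.57 and 13.4 CPM, and THY1 was listed at 0. Of the tested pluripotency markers, POU5F1 was at 120.3 to 152.2 CPM in knockdown and 87.8 to 114.1 CPM in control libraries. LIN28A and DNMT3B were also higher without overlap, and DPPA4 was lower without overlap. NANOG, SALL4, TDGF1 and L1TD1 overlapped. Of all genes tested, 18.9% did not overlap between the groups.

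The promoters of WASL, ABI1 and WASF3 are shown, which are 3 of the 4 members whose libraries did not overlap between the groups. Each window runs from 250 bases before to 50 bases after the RefSeq start site (GRCh38.p14) and is written 5′ to 3′ on the gene's strand. WASL lies on the minus strand (chr7:123748954-123749253), ABI1 on the minus strand (chr10:26860909-26861208) and WASF3 on the plus strand (chr13:26557433-26557732, the first of 2 listed starts). Capitals mark matches, on either strand, to the motifs searched, which were the GC box GGGCGG, the CCAAT box CCAAT, the TATA box TATAAA, the degenerate NRF1 motif and the ETS motif CCGGAAGT.
WASL: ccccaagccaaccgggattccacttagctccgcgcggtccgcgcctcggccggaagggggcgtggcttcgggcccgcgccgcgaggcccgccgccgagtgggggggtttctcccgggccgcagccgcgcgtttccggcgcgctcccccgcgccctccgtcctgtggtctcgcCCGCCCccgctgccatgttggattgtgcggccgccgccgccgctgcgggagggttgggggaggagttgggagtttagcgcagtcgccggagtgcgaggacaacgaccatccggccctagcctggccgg
ABI1: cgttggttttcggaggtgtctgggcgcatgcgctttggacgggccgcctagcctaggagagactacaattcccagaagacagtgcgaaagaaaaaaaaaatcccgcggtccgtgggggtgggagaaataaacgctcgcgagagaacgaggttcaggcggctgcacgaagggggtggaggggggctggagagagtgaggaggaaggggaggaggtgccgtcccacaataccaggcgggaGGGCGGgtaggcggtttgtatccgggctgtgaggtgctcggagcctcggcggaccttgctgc
WASF3: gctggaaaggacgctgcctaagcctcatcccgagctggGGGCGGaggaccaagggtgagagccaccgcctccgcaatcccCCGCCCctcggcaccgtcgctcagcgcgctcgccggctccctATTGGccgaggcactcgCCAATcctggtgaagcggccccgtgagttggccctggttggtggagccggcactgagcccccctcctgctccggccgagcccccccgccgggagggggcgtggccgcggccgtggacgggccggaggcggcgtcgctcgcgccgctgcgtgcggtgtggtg
The WASL window held 1 GC box and none of the other motifs. That of ABI1 also held 1 GC box and no full match to the others, and that of WASF3 held 2 GC boxes and 2 CCAAT boxes. Among the 35116 promoter windows of this length in the table, 45.0% held a GC box, 34.6% a CCAAT box, 11.5% a TATA box, 1.48% the NRF1 motif and 4.14% the ETS motif. The table gave windows for 7 of the 10 members, and WASF2, FAM49A and FAM49B were not examined. No window of these 7 genes held the TATA box, the full NRF1 motif or the ETS motif. The ABI1 window held the inner bases of the NRF1 motif, but neither of the end bases that the searched form requires. That form replaced an earlier search for the inner bases alone, which had matched the ABI1 window. A match to these letters describes the window and is not a measured site.

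WASL, the member that acts downstream of Cdc42 outside the WAVE complex, was lower in the knockdown libraries. It is encoded on chromosome 7 (chr7:123681935-123749067 in GENCODE 29, GRCh38; ENSG00000106299.7), and no other annotated gene overlaps it. Values per library are given in the order a, b, c. Its level was 136.8, 134.8 and 135.6 CPM in the knockdown libraries and 201.0, 194.3 and 192.7 CPM in the controls. The knockdown libraries lay close together, and all 3 lay far below the lowest control. The log2 fold change was -0.53 ± 0.06 (SE), with a 95% interval of -0.66 to -0.40, so that WASL fell by 30.7%. It ranked 10 of 19721 genes by p, which is the value that brought it into the group. Raw counts behind these levels ran from 3427 to 7002 per library.

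FAM49B, the Rac-binding inhibitor of the WAVE complex, was lower by a similar amount. It lies on chromosome 8 (ENSG00000153310.19). Its level was 57.1, 58.4 and 64.8 CPM in the knockdown libraries and 88.8, 91.8 and 90.9 CPM in the controls. The groups did not overlap, and the controls were the tighter group, with knockdown library c the nearest to them. The log2 fold change was -0.59 ± 0.07 (SE; 95% interval -0.74 to -0.44), so that FAM49B fell by 33.6%. It ranked 13 of 19721 genes by p. FAM49B overlaps 4 annotated genes on the opposite strand and 3 small RNA genes on its own strand, and how the authors' counting used strand is not given in the sources used here.

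FAM49A, the paralogue of FAM49B, was the least abundant member and was nearly equal in both groups. It was 12.9, 12.5 and 12.9 CPM in the knockdown libraries and 14.2, 11.3 and 12.6 CPM in the controls. The control libraries spread over a wider range than the knockdown libraries and enclosed them all. The log2 fold change was 0.01 ± 0.11 (SE), with a 95% interval of -0.22 to 0.23.

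**Figure D1:**
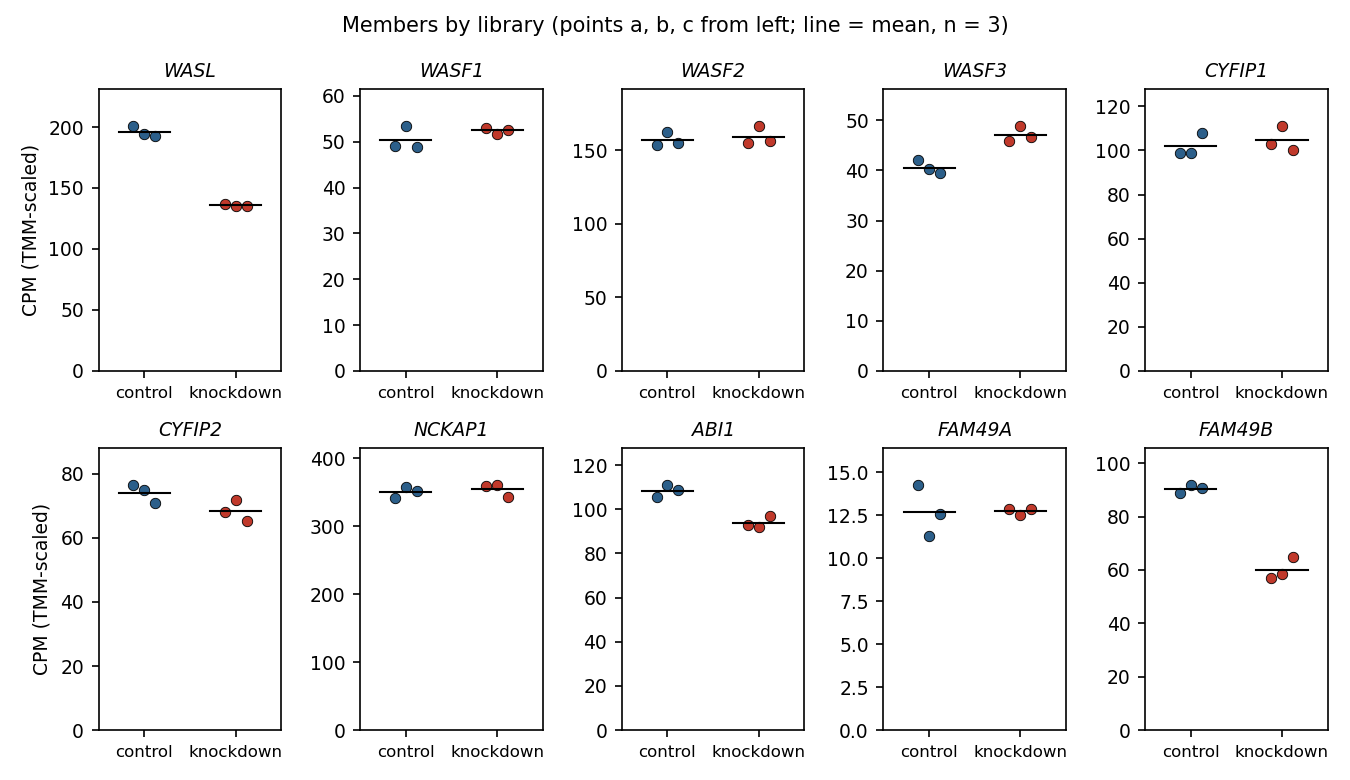
Level of each member in every library, in TMM-scaled CPM on axes that start at 0; points are libraries a, b and c from left to right, and the line is the mean of 3. WASL and FAM49B sit clearly lower in knockdown, ABI1 slightly lower and WASF3 slightly higher without overlap, and the other 6 members overlap.

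The 3 WAVE proteins themselves did not pass the threshold. WASF2, the WAVE protein with the highest level here and the widely expressed one, had 155.2, 166.8 and 156.3 CPM in the knockdown libraries and 153.5, 162.7 and 155.0 CPM in the controls. Its values interleaved, with a log2 fold change of 0.02 (95% interval -0.12 to 0.16). WASF1 ran from 51.8 to 53.1 CPM in knockdown and from 48.9 to 53.5 CPM in control libraries (log2 fold change 0.06; 95% interval -0.09 to 0.20). WASF3 (chr13:26557703-26688948; ENSG00000132970.12), which is overlapped over 34821 bases by the antisense gene WASF3-AS1, had 45.8, 48.9 and 46.6 CPM in the knockdown libraries and 42.04, 40.2 and 39.4 CPM in the controls. It was the one member whose knockdown libraries all lay above the controls, by a log2 fold change of 0.22 ± 0.07 (SE; 95% interval 0.07 to 0.36; edgeR adjusted p = 0.167), and it did not pass.

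ABI1, the adaptor that joins WAVE to NCKAP1, had the largest difference among CYFIP1, CYFIP2, NCKAP1 and ABI1. It lies on chromosome 10 (chr10:26746593-26861087; ENSG00000136754.17) and overlaps PDSS1 on the other strand over 206 bases. It had 93.0, 91.9 and 96.9 CPM in the knockdown libraries and 105.4, 111.0 and 108.8 CPM in the controls. All 3 knockdown libraries lay below all 3 controls, with a log2 fold change of -0.21 ± 0.06 (SE; 95% interval -0.34 to -0.07; edgeR adjusted p = 0.153). ABI1 did not pass the threshold with all 6 libraries, and it passed without knockdown library c (log2 fold change -0.25; edgeR adjusted p = 0.0237). With each library's trend on GC content removed, its log2 fold change was -0.16.

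NCKAP1, the large scaffold subunit, had more counts than any other member, at 343.0 to 360.8 CPM in knockdown and 342.3 to 358.4 CPM in control libraries. The ranges were almost the same, with a log2 fold change of 0.02 (95% interval -0.12 to 0.15). CYFIP1, the subunit that receives Rac, ran from 100.2 to 111.2 CPM in knockdown and from 98.7 to 107.9 CPM in control libraries (log2 fold change 0.04; 95% interval -0.11 to 0.19). CYFIP2, its paralogue, ran from 65.1 to 71.8 CPM in knockdown and from 70.7 to 76.4 CPM in control libraries (log2 fold change -0.11; 95% interval -0.26 to 0.03). The lowest control of CYFIP2 lay below the highest knockdown library, so these groups overlapped. From start to end, introns included, CYFIP2 shares 54000 bases with an annotated gene on the opposite strand. The exons of CYFIP2 cover 10498 bases, and how much exon sequence is shared was not measured. Reads from shared exon sequence could not be told apart without strand.

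**Figure D2:**
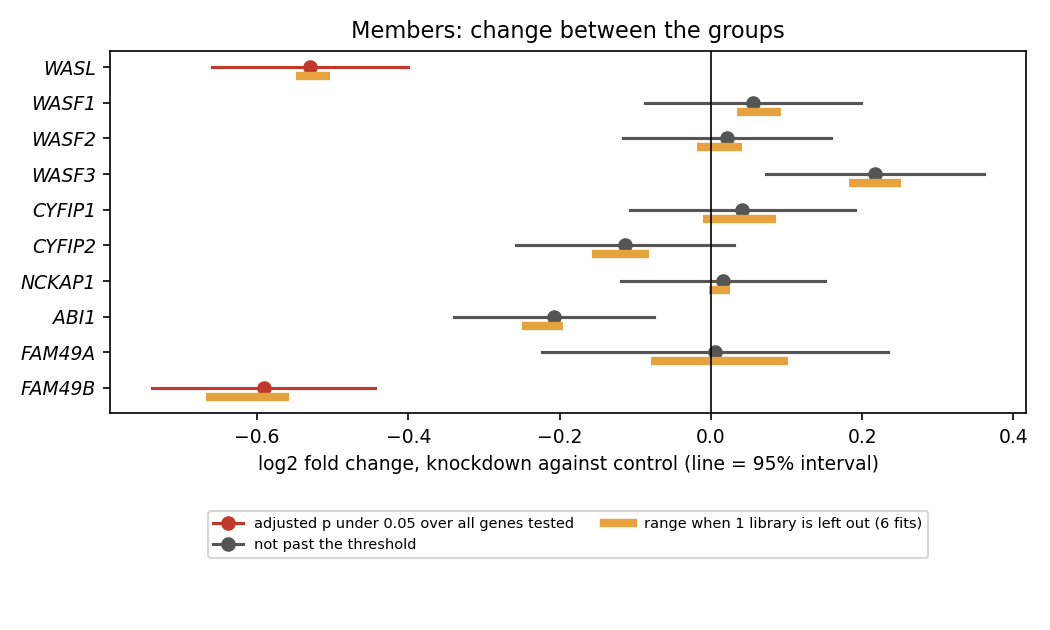
Log2 fold change of each member, knockdown against control, with its 95% interval (line) and the range over the 6 fits that each left out 1 library (orange bar). The intervals of WASL and FAM49B lie at -0.66 to -0.40 and -0.74 to -0.44, and those of WASF1, WASF2, CYFIP1, CYFIP2, NCKAP1 and FAM49A include 0.

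Of the 10 members, 2 passed the threshold, both lower, where 0.786% of all genes tested did (0.649% lower and 0.137% higher). The comparison chose them, so nothing is read from this count. The groups did not overlap in 4 members, 3 lower and 1 higher, beside 18.9% of all genes tested (9.37% lower and 9.55% higher). The median log2 fold change was 0.01 over the members and 0.02 over all genes tested. WASL and FAM49B passed in all 16 alternative settings that were run, in which the share of all tested genes that passed varied. With other scalings that share was 0.791% (DESeq2 size factors), 0.801% (library size alone) and 0.796% (upper quartile). It was 3.29% with no low-count filter and 1.09% for genes with a mean count of at least 50, and 3.89% with DESeq2's Wald test and 0.882% with limma-voom. A term for the library letter gave 1.99%, and removing the length or the GC trend gave 1.47%. Leaving out knockdown library a, b or c gave 0.507%, 0.301% and 6.4%, and leaving out control library a, b or c gave 0.127%, 0.208% and 0.208%. Without knockdown library a, the library that stood apart, the log2 fold change was -0.54 for WASL and -0.56 for FAM49B. Over the 6 fits that left out 1 library it ran from -0.55 to -0.50 for WASL and from -0.67 to -0.56 for FAM49B.

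WASL and FAM49B stood at opposite ends of the members in gene length and had similar transcript GC content. WASL spans 67133 bases, the shortest of the 10 genes, and FAM49B spans 177537 bases, the longest. WASL has 1 annotated transcript and FAM49B has 30. The GC content of the longest transcript was 40.3% for WASL, 39.5% for FAM49B, 39.2% for NCKAP1 and 38.3% for ABI1. It was 41.5% for FAM49A, which was nearly equal in both groups, and 45.9% (WASF3) to 53.3% (WASF2) for the remaining members. With the trend on gene length removed, the log2 fold change was -0.56 for WASL and -0.57 for FAM49B. With the trend on GC content removed, it was -0.49 and -0.55. Whether gene length or GC content had a part in these differences was not tested.

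Levels were next compared between members on a scale of CPM per kilobase of annotated exon sequence, in the control libraries. WASL was the most abundant member at 44.2 ± 0.991 (SD, n = 3), higher than 95.2% of the tested genes with a length. It was followed by WASF2 at 27.7 ± 0.870 and ABI1 at 25.7 ± 0.667, each apart from the next. NCKAP1 (15.6 ± 0.360) and WASF1 (15.5 ± 0.798) overlapped, as did FAM49B (9.91 ± 0.168) and CYFIP1 (9.77 ± 0.508). WASF3 (7.85 ± 0.263), CYFIP2 (7.04 ± 0.282) and FAM49A (2.33 ± 0.274) came last and did not overlap each other. In knockdown libraries WASL was 30.6 ± 0.228 and WASF2 was 28.1 ± 1.13 CPM per kilobase, so WASL was still first. FAM49B was 6.58 ± 0.449 there, below WASF3 at 9.13 ± 0.313.

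This order depends on the length assumed for each gene. The exons of NCKAP1 cover 22520 bases, because 1 annotated transcript is 20347 bases long, whereas its APPRIS principal transcript (the isoform that GENCODE tags as the main protein product) has 4989. With that length NCKAP1 would stand at 70.3 ± 1.63 CPM per kilobase and come next after ABI1 (75.0 ± 1.95). With the longest transcript of each gene FAM49B moved above NCKAP1, to 19.9 ± 0.336. WASL was first with the exon total and with the longest transcript, and came after ABI1 and NCKAP1 with the principal transcript.

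The paralogues of each subunit were then expressed as shares of their summed level, again per kilobase of exon. FAM49B made up 78.8%, 82.9% and 81.2% of the FAM49 pair in the controls and 72.6%, 73.6% and 75.0% in the knockdown libraries. The pair as a whole was 12.2 ± 0.110 CPM per kilobase in control and 8.92 ± 0.464 in knockdown libraries. WASF2 held 54.3 ± 0.400% of the WASF family in control and 52.7 ± 0.878% in knockdown libraries. WASF3 held 15.4 ± 0.752% and 17.1 ± 0.207%. The sum of the 3 WAVE genes was 51.0 ± 1.61 CPM per kilobase in control and 53.3 ± 1.25 in knockdown libraries, with overlapping values. The ABI genes summed to 27.9, 29.3 and 28.3 CPM per kilobase in the controls and 25.1, 24.5 and 26.4 in the knockdown libraries, with no overlap. CYFIP1 held 58.1 ± 2.20% of the CYFIP pair in control and 60.7 ± 0.307% in knockdown libraries. Control library c (60.6%) lay within the knockdown range. With the length of the principal transcript CYFIP1 held 46.3% in control and 49.0% in knockdown libraries, and CYFIP2 had the larger share.

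WASL supplied 98.8 ± 0.445% of the level of the WASP pair in control and 97.8 ± 0.284% in knockdown libraries. WAS, its blood-cell paralogue, had 31 to 59 counts per library. NCKAP1L, the blood-cell paralogue of NCKAP1, had 1 to 12 counts. The 6 blood markers summed to 82.9 to 99.4 CPM in knockdown and 89.4 to 93.1 CPM in control libraries, mostly from LCP1 (61.0 to 71.8 CPM) and RUNX1 (13.8 to 26.8 CPM). PTPRC, which defines blood cells, was at 1.41 CPM in knockdown library a and 0.0396 to 0.176 CPM in the others. RUNX1 was at 26.8 CPM in knockdown library a and 13.8 to 17.8 CPM in the others. The highest blood sum and the highest NCKAP1L count were also those of knockdown library a, the library that stood apart. SPI1 was at 1.06 to 1.83 CPM. ABI1 held 90.1 ± 0.816% of the ABI family in control and 87.9 ± 0.874% in knockdown libraries. Its share was 67.9 ± 0.888% of the raw counts in control libraries, where the exons of ABI2 cover 23331 bases and those of ABI1 4218.

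**Figure D3:**
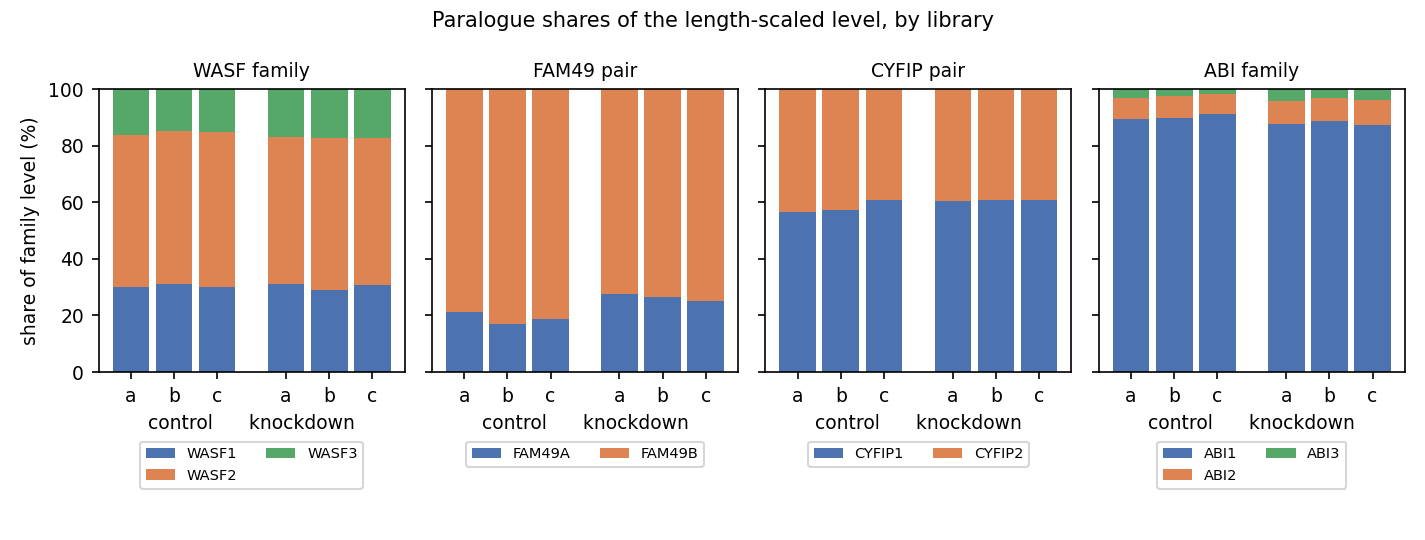
Share of each gene in the summed length-scaled level of its family, in percent, for control libraries a, b and c and knockdown libraries a, b and c. FAM49B takes 78.8% to 82.9% of its pair in control and 72.6% to 75.0% in knockdown libraries. It was selected on this comparison, so its lower share is a description. Mean shares in the WASF, CYFIP and ABI families change by under 3 percentage points.

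The rest of the pathway to actin was read from 11 lists of 143 genes, of which 136 were tested. Of these 136, 1 passed the adjusted threshold (0.735%, beside 0.786% of all genes tested). An unadjusted p under 0.05 was reached by 29 (21.3%, beside 14.3% of all genes), 10 higher and 19 lower. The median log2 fold change over the 136 genes was -0.002.

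The gene that passed was FMNL2, a formin that extends unbranched filaments at the cell edge. It had 225.8, 214.1 and 274.5 CPM in the knockdown libraries and 374.1, 342.5 and 352.6 CPM in the controls. The groups did not overlap, and knockdown library c was the nearest to the controls. The log2 fold change was -0.58 ± 0.09 (SE; adjusted p = 0.0113 by edgeR). FMNL2 passed in 13 of 16 alternatives and not in the fits without control library a (adjusted p = 0.117), b (0.0746) or c (0.113; edgeR), where its log2 fold change was -0.54, -0.62 and -0.59. FMNL2 also had the highest length-scaled level, averaged over the 6 libraries, among the 17 formins and other linear nucleators tested, of which 6 had an unadjusted p under 0.05 (5 lower, 1 higher), or 35.3% beside 14.3% of all genes tested (1493 lower, 1318 higher). COBL, another nucleator of unbranched filaments, had a log2 fold change of -0.25 ± 0.08 (SE; adjusted p = 0.190 by edgeR) and passed in 2 of 16 alternatives.

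Among the other WAVE subunits 0 of 3 tested genes passed. BRK1, the smallest subunit, was at 52.5 to 61.2 CPM in knockdown and 57.9 to 59.8 CPM in control libraries (log2 fold change -0.04 ± 0.07, SE). ABI3 was rare, with 44 to 77 counts per library (log2 fold change 0.49 ± 0.26, SE). Of 5 tested WASP relatives and WASP-interacting proteins 0 passed. JMY, a nucleation promoter that also acts as a p53 cofactor, had a log2 fold change of -0.11 ± 0.06 (SE). The values for WIPF3 and WIPF2 were 0.15 ± 0.11 and 0.09 ± 0.08. In the WASH complex, which drives Arp2/3 on endosomes, 0 of 5 passed and all 5 were below 0, except that KIAA0196 was above 0 in 5 alternatives: library size alone (0.016), upper quartile (0.0061), GC trend removed (0.013), without knockdown library c (0.018) and without control library b (0.0020). KIAA1033, its WASHC4 subunit, was at -0.16 ± 0.06, CCDC53 (WASHC3) at -0.21 ± 0.11 and KIAA0196 (WASHC5, strumpellin) at -0.01 ± 0.07 (SE).

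The Arp2/3 complex, on which N-WASP and WAVE both act, had 0 of 10 subunits past the threshold and a median log2 fold change of -0.002. ACTR2, the actin-related subunit with the highest level in that list, had 228.5 to 266.4 CPM in knockdown and 220.6 to 245.0 CPM in control libraries. ARPC1B was at 0.25 ± 0.13 (SE), and ARPC4 had 13 to 24 counts per library. ARPC3 was also low, at 2.36 to 3.69 CPM (log2 fold change -0.16 ± 0.20, SE). Of 10 branch regulators 0 passed, with CORO2A at 0.19 ± 0.07, CORO1A at 0.32 ± 0.17 and CORO1C at -0.03 ± 0.06 (SE). Of 10 genes for actins, profilins, capping proteins and other actin-binding proteins, 0 passed. ACTB, the main cytoplasmic actin, was at 0.06 ± 0.08, PFN1 at 0.15 ± 0.09 and CAP2 at -0.15 ± 0.07 (SE). The value for PFN1 was 0.052 without knockdown library b, 0.082 after removal of the length trend and 0.043 after that of the GC trend.

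Upstream, 0 of 31 exchange factors, activating proteins and other regulators of Rac, Cdc42 and related GTPases passed. Of these, 11 had an unadjusted p under 0.05 (9 lower, 2 higher). That is 35.5%, beside 14.3% of all genes tested (1493 lower, 1318 higher). The median log2 fold change over the 31 genes was -0.05. PREX1, a Rac exchange factor, had 15.7 to 17.5 CPM in knockdown and 12.4 to 12.9 CPM in control libraries (log2 fold change 0.39 ± 0.09, SE; adjusted p = 0.0737 by edgeR). SRGAP1, which speeds GTP hydrolysis by Cdc42, had 24.1 to 26.6 CPM in knockdown and 30.1 to 32.5 CPM in control libraries (log2 fold change -0.30 ± 0.07, SE; adjusted p = 0.0913 by edgeR). PREX1 passed in 2 and SRGAP1 in 3 of 16 alternatives. ECT2, with the highest level in this list, was at -0.05 ± 0.06 (SE).

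Of 21 adaptors and membrane-curving partners 0 passed. FNBP1L (TOCA-1), which links Cdc42 to N-WASP on membranes, had 417.3 to 445.5 CPM in knockdown and 487.6 to 508.8 CPM in control libraries. Its libraries did not overlap, with a log2 fold change of -0.21 ± 0.06 (SE; adjusted p = 0.165 by edgeR), and it passed in 2 of 16 alternatives. PACSIN1, another N-WASP partner, was at 0.36 ± 0.10 (SE; edgeR adjusted p = 0.141). In the kinase and cofilin list 0 of 12 passed. The cofilin phosphatase SSH2 was at -0.36 ± 0.13, the cofilin kinase LIMK1 at 0.21 ± 0.09 and the Rac effector PAK1 at -0.08 ± 0.07 (SE). The cofilin gene CFL1 was low, at 3.69 to 5.18 CPM, which limits the precision of its value (0.14 ± 0.16, SE). SSH2 passed in 2 of 16 alternatives, with no low-count filter and without knockdown library c, where its log2 fold change was -0.58 (edgeR adjusted p = 0.00517).

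**Figure D4:**
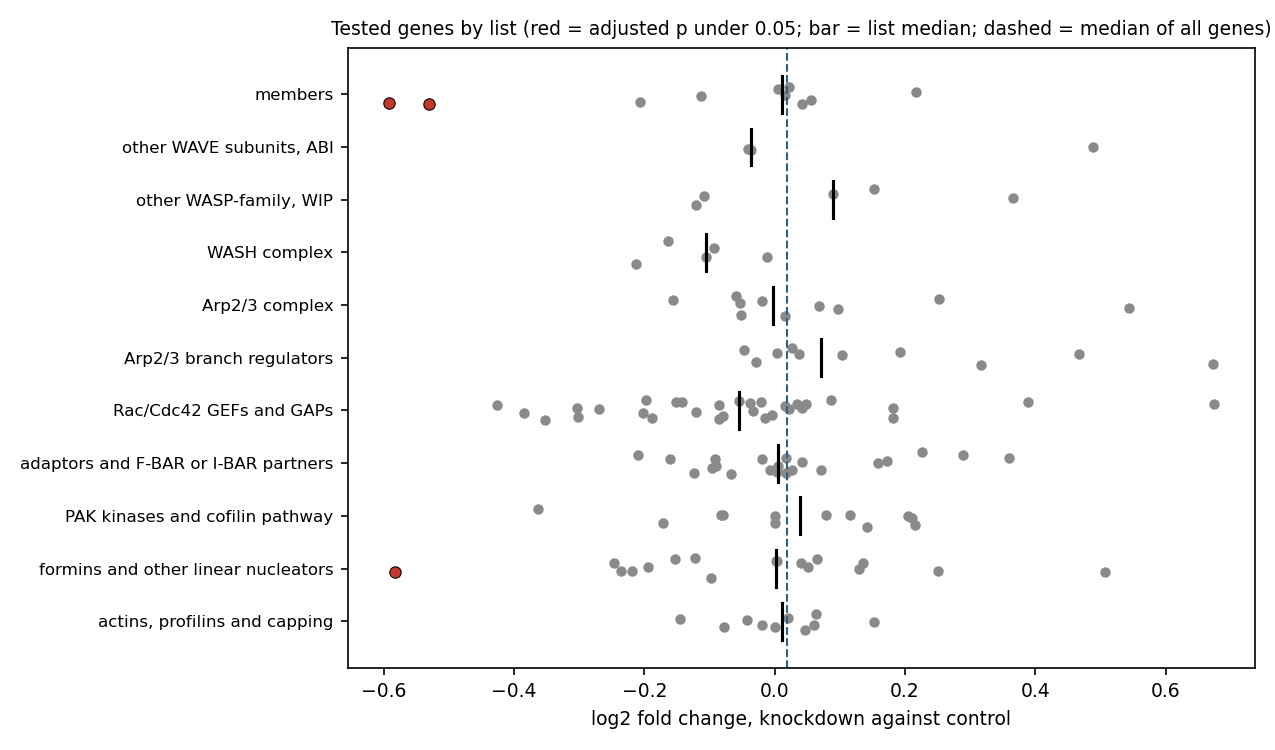
Log2 fold change of the members and of the tested genes of 10 lists, knockdown against control; each point is a gene, red marks an adjusted p under 0.05, the bar is the list median and the dashed line the median of all genes tested (0.02). The red points are WASL and FAM49B among the members and FMNL2 among the formins.

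Genes with the profile most like that of a lower member were found by Pearson correlation of log2 CPM over the 6 libraries, among the 15140 tested genes with a mean count of at least 50. These correlations describe 6 points that share the split into 2 groups. Nearest to WASL were KIAA0586 (r = 0.998), RP11-446H18.3 (0.997) and SLC44A5 (0.993). KIAA0586 had 77.2 to 77.6 CPM in knockdown and 84.8 to 85.9 CPM in control libraries, a much smaller difference than that of WASL (log2 fold change -0.14). SLC44A5 had 305.5 to 318.9 CPM in knockdown and 442.9 to 452.7 CPM in control libraries (log2 fold change -0.53). Nearest to FAM49B were CTB-151G24.1 (r = 0.997), AP002954.4 (0.997) and ABCC2 (0.997), with log2 fold changes of -0.59, -0.51 and -0.53. WASL and FAM49B correlated with each other at r = 0.975, which placed FAM49B at rank 58 for WASL and WASL at rank 87 for FAM49B.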

How the data were processed

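RNA was sequenced from 6 libraries of H9 cells, 3 per gapmer group. The authors deposited raw read counts per gene symbol, and the submitters' processing notes name Trimmomatic 0.39, STAR 2.7.8a, featureCounts, Subread 2.14.2 and build hg38. The annotation, strand setting, multi-mapping and filters are not given in the sources used here. Symbols were matched to GENCODE 29 (32623 of 53719 rows) for identifiers, lengths and GC content.

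Counts were tested with edgeR 4.0.16 (R 4.3.3): filterByExpr, TMM, the quasi-likelihood test with group as its only term, two-sided, Benjamini-Hochberg adjustment over 19721 genes. SE is the log2 fold change over the square root of F, and intervals use the same SE. The procedure was also run on simulated counts with the same dispersion for every gene, which cannot show how it performs on these libraries. Alternatives used other scalings, filters and tests (DESeq2 1.42.0; limma-voom, limma 3.58.1), length and GC trends, a replicate block and each library left out.

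The members and lists were chosen with earlier results of these data known. From each list the text names genes past the threshold, the 2 with the smallest p and the one with the highest length-scaled level, and the 3 genes most like WASL and FAM49B. ARPC3 and CFL1 are also named, for their low levels. The values of 1 of the 11 lists are not reported here on their own, and its genes count in the totals.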

Additional observations from a re-analysis of the deposited data

How the results depend on the processing

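WASL and FAM49B passed in all 16 alternatives, and the number of members past the threshold was 2 in each but the fit without knockdown library c, where ABI1 made it 3 (range 2 to 3 over the fits without 1 library). The count over all genes, 155, was 1064 with no low-count filter, 501 with DESeq2's Wald test and 235 with either the length or the GC trend removed. It ran from 26 (without control library a) to 1309 (without knockdown library c) when 1 library was left out. The count over the pathway lists, 1, was 2 with library size alone, 11 with no filter, 7 with DESeq2 and 2 with either trend removed, and ran from 0 (without any 1 control library) to 17 (without knockdown library c). The cause of these shifts was not tested.

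With the replicate block, 393 genes and 4 pathway genes passed (FMNL2 among them), and 2 members. Deviations from the group means, taken over all genes tested, correlated at 1.23e-05, 0.116 and -0.0251 for letters a, b and c. Such values over all genes cannot show whether the letters paired the libraries in some genes.

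The fall in the FAM49B share of its pair, -7.23 percentage points, was -5.13 with the longest transcript and -4.49 with the principal transcript, a length chosen after the data were seen. That of WASL was -1.02, or -0.556 in raw counts. The order by level changed for 7 members with the longest transcript, for 9 with the principal transcript and for 0 to 2 without 1 control library.

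Signs changed in uncalled genes near 0. WASF2 was -0.042 with the GC trend removed and ran from -0.019 (without knockdown library b) to 0.041 when 1 library was left out. FAM49A was -0.00037 with DESeq2 size factors and -0.0032 with the Wald test, and ran from -0.079 to 0.10 when 1 library was left out, with -0.0042, -0.021 and -0.0018 without knockdown libraries a and c and control library c. CYFIP1 ran from -0.010 to 0.086, NCKAP1 from -0.0030 to 0.026 and ACTB from -0.0037 to 0.11, each lowest without knockdown library b, and ACTB was -0.018 with the GC trend removed. KIAA0196, the WASH gene with the highest mean length-scaled level over the 6 libraries, was -0.01. It was 0.016 with library size alone, 0.0061 with the upper quartile and 0.013 with the GC trend removed, and ran from -0.049 to 0.018 when 1 library was left out, with 0.0020 without control library b. WAS, ABI3, NCKAP1L and ARPC4 had at most 77 counts per library, which limits the precision of their values. ARPC4 is overlapped on its own strand by ARPC4-TTLL3 over 14645 bases, and the part of this overlap in its low count was not tested.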
